A study of Mus musculus with 24 samples.

Results

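The proteasome subunit genes were taken as every entry of the deposited expression table whose symbol is Psma, Psmb, Psmc, Psmd, Psme, Psmf or Psmg followed by a number. The rule used the symbol alone and found 48 of the 25965 entries. Of these, 47 had a mean of at least 0 log2 rpm, the log2 of the reads scaled to the depth of the library, over all libraries and were tested together with all other such genes, 13296 in all. Psmb11, the subunit of the thymus proteasome, held 0 reads or 1 read in each library and was not tested. The members lie on 16 chromosomes, with 47 on autosomes and Psmd10 on the X.

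The libraries came from male C57/Bl6 mouse embryonic stem cell (mESC) lines, expanded in 2i medium and differentiated by weaning into DME HiHi medium. On day 2 the cells were transduced with a virus carrying a short hairpin RNA, puromycin selection began on day 3, and RNA was harvested on days 4, 5, 6 and 7. Hairpins Smarcc1.6 and Smarcc1.7 target Smarcc1 and hairpins Smarca4.4 and Smarca4.6 target Smarca4, which encode a core subunit and an ATPase of the BAF chromatin remodelling complex, and Nons is a nonsilencing hairpin. Each hairpin gave 1 library per day, so that the 20 libraries form 5 series, each Smarcc1 or Smarca4 knockdown has 2 libraries per day, and Nons has 1. Transduction, selection and the change of medium were shared by all groups. The genotype label names Smarcc for the Smarca4 libraries as well, and the titles were followed. Smarcc1 stood at 23.7% to 60.1% of the same-day Nons level in the Smarcc1 knockdown libraries, and Smarca4 at 21.6% to 55.3% in the Smarca4 knockdown libraries. Nothing in the labels says that libraries of a group came from separate cultures, so p-values measure only the spread between the 2 hairpins of a knockdown on the same day. Nons, with 1 library per day, adds nothing to this spread and is assumed to vary like the knockdown libraries.

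The 26S proteasome degrades proteins tagged with ubiquitin. Its 20S core is a barrel of rings of alpha subunits (Psma genes) around rings of beta subunits (Psmb genes), in which Psmb5, Psmb6 and Psmb7 encode the catalytic sites. The 19S cap holds a ring of ATPases (Psmc genes) that unfold the substrate and non-ATPase subunits (Psmd genes) that bind and remove ubiquitin chains. Interferon-gamma induces Psmb8, Psmb9 and Psmb10, which replace Psmb5, Psmb6 and Psmb7 in the immunoproteasome, and Psme1 and Psme2, which form the PA28 activator, and these proteins shape the peptides presented on MHC class I. Psma8 replaces Psma7 in the testis.

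The promoters of the members that rose during differentiation are shown because these genes moved together. RefSeq windows reaching from 250 bases before to 50 bases after the gene start (GRCm38.p6) were found for 40 of the 48 members. In the lines below, letters are lower case and a matched motif is in capitals. Psmb8 (chr17:34197945-34198244, plus strand) and Psmb9 (chr17:34187281-34187580, minus strand) are neighbours in the MHC region, and Psme1 (chr14:55578244-55578543, plus strand) and Psme2 (chr14:55591052-55591351, minus strand) are neighbours on chromosome 14.
Psmb8: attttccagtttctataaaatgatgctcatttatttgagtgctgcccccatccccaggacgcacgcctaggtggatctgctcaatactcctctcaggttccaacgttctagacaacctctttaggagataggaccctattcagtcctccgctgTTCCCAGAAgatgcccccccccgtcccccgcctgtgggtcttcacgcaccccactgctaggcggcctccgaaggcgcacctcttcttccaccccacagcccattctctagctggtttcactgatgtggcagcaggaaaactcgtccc
Psmb9: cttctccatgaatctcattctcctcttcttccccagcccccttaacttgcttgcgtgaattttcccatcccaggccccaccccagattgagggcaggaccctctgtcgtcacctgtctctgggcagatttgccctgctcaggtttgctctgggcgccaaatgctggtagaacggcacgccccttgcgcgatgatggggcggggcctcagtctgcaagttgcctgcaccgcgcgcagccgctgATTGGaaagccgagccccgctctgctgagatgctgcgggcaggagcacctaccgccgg
Psme1: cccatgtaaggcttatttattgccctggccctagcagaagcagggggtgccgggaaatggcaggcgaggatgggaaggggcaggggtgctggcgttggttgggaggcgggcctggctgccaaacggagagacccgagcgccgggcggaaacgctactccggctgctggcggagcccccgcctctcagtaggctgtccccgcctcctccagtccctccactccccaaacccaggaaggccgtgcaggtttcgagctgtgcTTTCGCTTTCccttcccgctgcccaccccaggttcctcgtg
Psme2: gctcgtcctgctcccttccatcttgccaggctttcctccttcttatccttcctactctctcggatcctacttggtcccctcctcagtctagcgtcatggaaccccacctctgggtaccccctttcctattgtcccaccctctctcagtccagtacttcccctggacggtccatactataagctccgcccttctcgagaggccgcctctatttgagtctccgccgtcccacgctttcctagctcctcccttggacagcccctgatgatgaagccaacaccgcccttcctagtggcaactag
The capitals mark TTCNNNGAA in Psmb8, CCAAT read on the other strand in Psmb9, and GAAA, any 2 bases and GAAA read on the other strand in Psme1. No searched motif matched in the Psme2 window. TTCNNNGAA, the form of a STAT site, and the latter, the core of the interferon-stimulated response element, were chosen after the expression values had been seen. Counting a gene once and both strands, TTCNNNGAA was held by 3 of 40 members (7.5%) against 9.55% of the 27025 genes with a window, and the interferon-stimulated response element core by 5 of 40 (12.5%) against 3.99%. Beside Psme1, the holders of that core were Psmb3, Psmd4, Psmd9 and Psmg4, none of which was called higher between day 4 and day 7. TGACNNNGC and TGAGNNNGC, forms of the antioxidant response element that Nfe2l1 and Nfe2l2 bind, were held by 6 of 40 (15%) against 14% and by 12 of 40 (30%) against 19.8%. CCAAT, the NF-Y motif, was held by 14 of 40 (35%) against 41.1%. A match says only that these letters stand in the window, and none of the 4 promoters shown held an antioxidant response element form. The Psmb8, Psmb9 and Psme1 windows lie inside the deposited entries of these genes, which begin further upstream, at 34197721, 34187764 and 55578123. The bases around those starts were not searched.

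Members differed widely in level. Per kilobase of exon of the principal transcript, the median over libraries ran from 5.86 rpkm for Psmb9 to 502 rpkm for Psma7 among the tested members. Constitutive beta subunits had medians of 144 to 404 rpkm and alpha subunits of 85.0 to 502 rpkm, whereas the 19S ATPases had medians of 77.1 to 151 rpkm. The inhibitor Psmf1 (6.98 rpkm) and the immunosubunit Psmb8 (8.09 rpkm) were close to the bottom. Total reads per library ran from 6829596 to 27472885, at which 3 reads correspond to 0.109 to 0.439 rpm. Of the members, 13 overlap another entry of the table, among them Psmb8 (Gm20496), Psmb9 (Tap1), Psmb10 (Gm16156) and Psme1 (Fam158a), and since no source used here says whether strand was counted, reads of such pairs cannot be told apart.

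The first comparison asked how the genes changed as the cells differentiated. Between day 4 and day 7, averaged over Nons and both knockdowns, 4 members rose and 25 fell (limma-trend, adjusted p under 0.05). Across all genes tested, 35.7% were called higher and 28.8% lower. This split of 4749 to 3826 became 4029 to 4704 after centring each library on its median gene. After quantile normalization it was 4066 to 4427. The members that rose were the immunosubunits Psmb8 and Psmb9 and the PA28 subunits Psme1 and Psme2. The median log2 difference was -0.44 over members and 0.08 over all genes. Because centring each library on its median gene moved the all-gene median to -0.09, the member median relative to the all-gene median is given too, which was -0.52 with either scaling and -0.41 after quantile normalization. Bulk RNA cannot tell fewer cells of a kind from less RNA per cell.

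**Figure D1:**
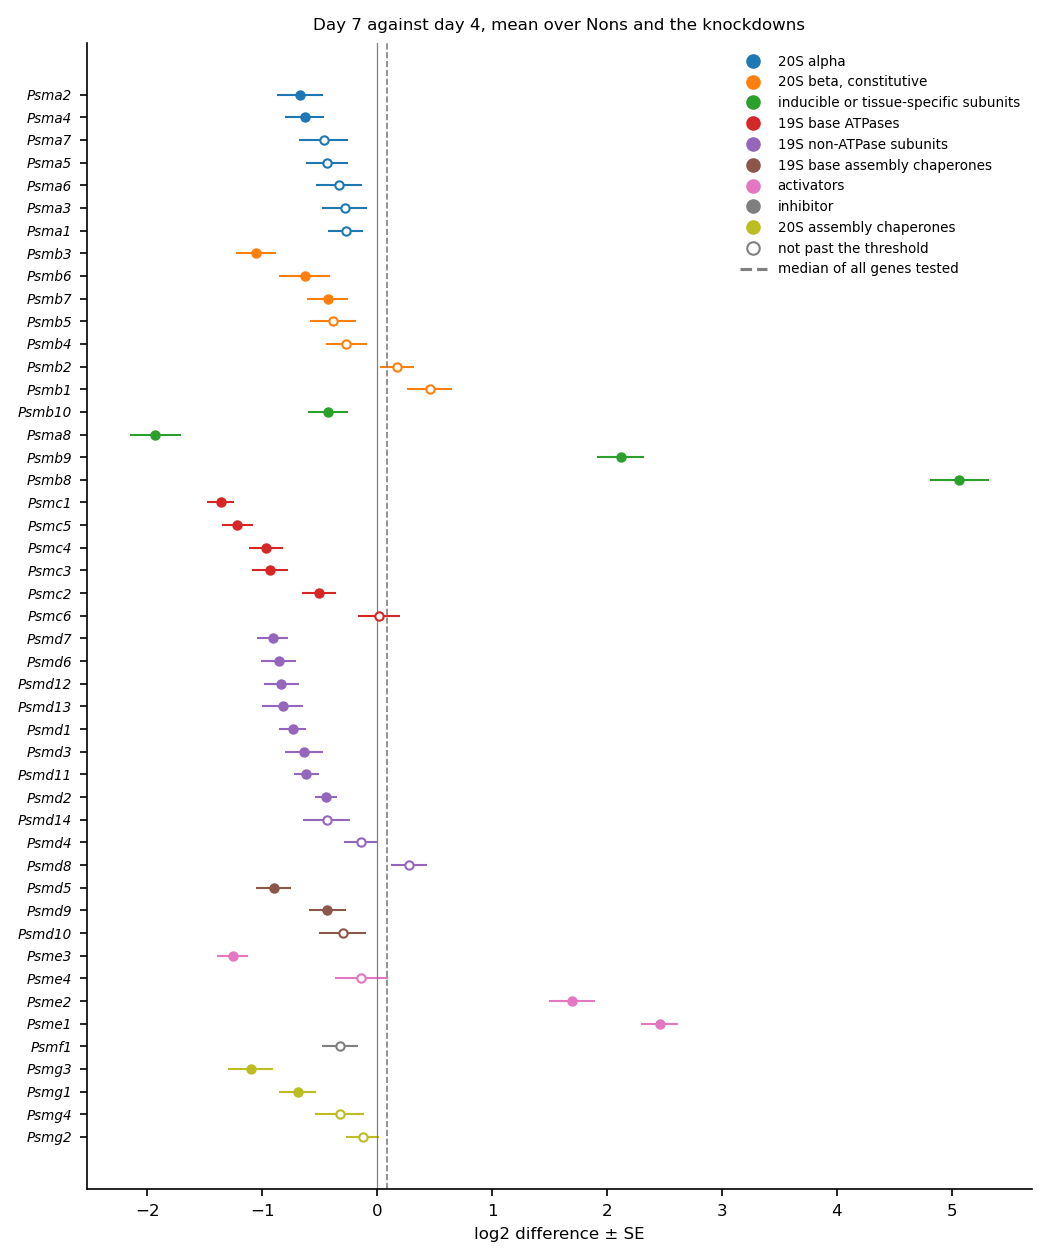
Log2 difference between day 7 and day 4 (horizontal axis, ± SE, 20 libraries) for the 47 tested members, coloured by role and filled where the adjusted p was below the threshold. Psmb8, Psme1, Psmb9 and Psme2 are filled and lie to the right of the all-gene median (dashed, 0.08). Psmb1 (0.457), Psmd8 (0.275) and Psmb2 (0.173) also lie to its right but are not filled, and 39 members lie below 0.

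Psmb8 had the largest difference of all members. On day 4 it was at 1.86 rpm in Nons, 0.137 and 0.272 rpm in Smarcc1.6 and Smarcc1.7, and 0.598 and 0.714 rpm in Smarca4.4 and Smarca4.6. On day 7 it was at 20.4, 19.7, 22.0, 24.2 and 17.8 rpm in the same order. All day 7 libraries were above all day 4 libraries, and the spread among the series was wide on day 4 and narrow on day 7. The log2 difference was 5.07 (SE 0.26, adjusted p = 6.83e-09, limma-trend). The day 4 value of Smarcc1.6 rests on 3 reads and that of Smarcc1.7 on 6 reads.

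Psmb9 rose from 3.13, 1.42, 1.72, 1.62 and 2.80 rpm on day 4 (Nons, Smarcc1.6, Smarcc1.7, Smarca4.4, Smarca4.6) to 8.90, 9.06, 8.05, 13.0 and 9.66 rpm on day 7, by 2.12 on the log2 scale (SE 0.20, adjusted p = 1.36e-06, limma-trend). Psme1 went from 32.4, 16.5, 21.0, 17.2 and 21.2 rpm to 137, 115, 114, 136 and 109 rpm, a log2 difference of 2.46 (SE 0.16, adjusted p = 4.87e-08, limma-trend). Psme2 went from 53.0, 23.2, 30.2, 28.8 and 46.3 rpm to 115, 125, 112, 151 and 109 rpm, a log2 difference of 1.7 (SE 0.20, adjusted p = 9.55e-06, limma-trend). In each of these genes the day 4 and day 7 libraries did not overlap. That also held for falling members such as Psmc1 and Psme3, and its share among all genes was not counted.

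Psmb10, the remaining immunosubunit, did not follow them. It was at 41.1, 26.5, 29.4, 25.01 and 27.7 rpm on day 4 and at 23.9, 26.3, 21.5, 24.2 and 19.7 rpm on day 7, with its highest values on day 5 (38.3 to 65.1 rpm). Its log2 difference of -0.43 (SE 0.18) had an adjusted p of 0.047 (limma-trend), which 5 of the 15 alternatives lost. Leaving out Smarcc1.6, Smarcc1.7 or Smarca4.6 gave 0.0524, 0.149 and 0.128 (limma-trend).

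**Figure D2:**
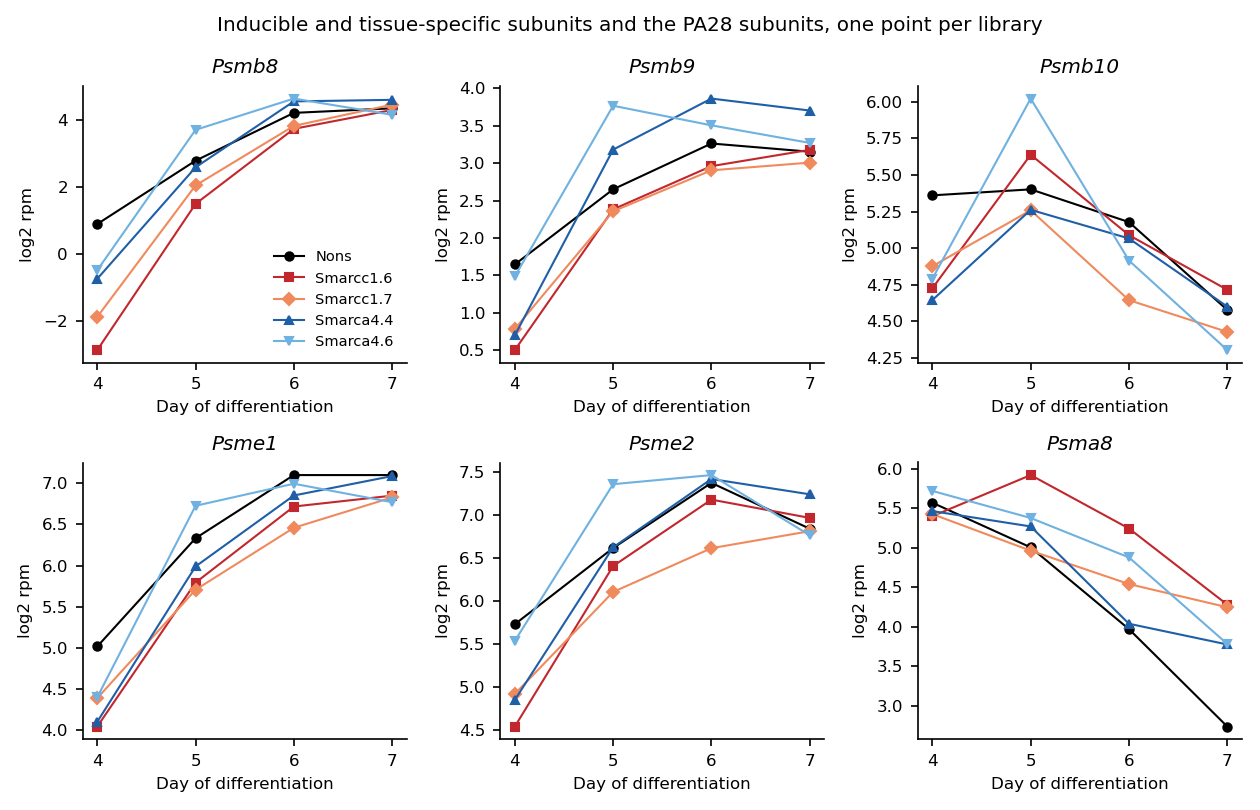
Log2 rpm (vertical axes, each with its own range) against day for Psmb8, Psmb9, Psmb10, Psme1, Psme2 and Psma8, with 1 point per library and 1 line per series. Psmb8, Psmb9, Psme1 and Psme2 were higher on day 7 than on day 4 in all 5 series, Psma8 was lower in all 5, and Psmb10 was highest on day 5.

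Set against the subunit it replaces, Psmb8 made up 0.0505% to 0.523% of the summed rpkm of Psmb8 and Psmb5 on day 4 (median 0.214%) and 6.85% to 10.8% on day 7 (median 8.24%). Psmb9 made up a median of 0.34% of Psmb9 and Psmb6 on day 4 and 2.58% on day 7. For Psmb10 and Psmb7 the medians were 7.28% and 7.61%, and their ranges over libraries overlapped. The standard catalytic subunits thus remained the larger part of each pair in all libraries.

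**Figure D3:**
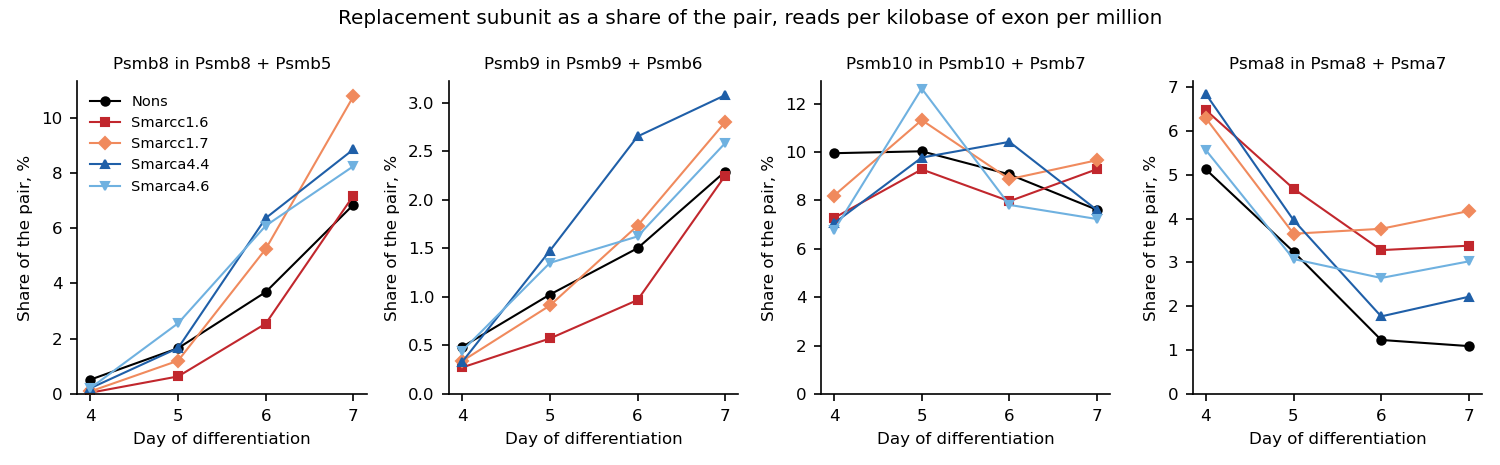
Rpkm of a replacement subunit as a percentage of the summed rpkm of that subunit and the standard one (vertical axes from 0) against day, with 1 point per library. The share of Psmb8 reached 6.85% to 10.8% on day 7, while that of Psmb10 was between 6.76% and 12.6% throughout.

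Among the members that fell, Psma8 had the largest difference, -1.93 (SE 0.22, adjusted p = 6.94e-06, limma-trend). It went from 47.4, 42.1, 42.9, 44.1 and 52.6 rpm on day 4 to 6.66, 19.4, 18.96, 13.7 and 13.8 rpm on day 7, with Nons lowest. Psma8 made up a median of 6.29% of the rpkm of Psma8 and Psma7 on day 4 and 3.03% on day 7.

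The ATPase ring fell almost as a whole, with 5 of its 6 genes called lower and Psmc6 at a log2 difference close to 0. Psmc1 went from 312, 351, 346, 335 and 306 rpm on day 4 to 139, 128, 108, 134 and 118 rpm on day 7, a log2 difference of -1.36 (SE 0.12, adjusted p = 6.77e-07, limma-trend). Psmc5 went from 244, 251, 249, 240 and 238 rpm to 93.8, 120, 98.7, 125 and 103 rpm, a log2 difference of -1.22 (SE 0.14, adjusted p = 5.59e-06, limma-trend). The series lay close together on both days. Of the 19S non-ATPase subunits 8 of 11 were called lower, from -0.45 for Psmd2 to -0.91 for Psmd7, the partner of the deubiquitinase Psmd14.

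Of the alpha subunits, 2 of 7 (Psma2 and Psma4) were called lower, and of the constitutive beta subunits 3 of 7 (Psmb3, Psmb6 and Psmb7), where 28.8% of all genes were called lower, so that the alpha count is at the share of all genes. Psmb1 was higher on day 7 in all 5 series, with a log2 difference of 0.46 (SE 0.20) that missed the threshold (adjusted p = 0.0587, limma-trend). Of the 31 constitutive 26S subunits together, 0 rose and 18 fell.

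The other activators and the assembly factors gave mixed results. Psme3, the nuclear PA28 gamma activator, went from 276, 291, 288, 293 and 278 rpm on day 4 to 110, 132, 125, 118 and 117 rpm on day 7, a log2 difference of -1.26 (SE 0.13, adjusted p = 3.12e-06, limma-trend), opposite to Psme1 and Psme2. Psme4, the PA200 activator, was at -0.14 (SE 0.23). The 20S assembly chaperone Psmg3 went from 37.5, 28.3, 28.7, 28.4 and 35.8 rpm to 17.5, 17.5, 12.1, 14.7 and 12.5 rpm, a log2 difference of -1.10 (SE 0.20, adjusted p = 0.000302, limma-trend), and Psmg1 also fell. Of the chaperones of the 19S base, Psmd5 and Psmd9 fell and Psmd10 was at -0.30. The inhibitor Psmf1 was at -0.32 and did not pass.

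The fall was not steady. From day 4 to day 5, 12 members rose and 2 fell, where 19.5% of all genes were called higher and 19.2% lower. From day 5 to day 6, 3 rose and 15 fell, against 17.0% and 15.3% of all genes. From day 6 to day 7, 0 rose and 19 fell, against 16.9% and 10.6% of all genes. These 2248 higher and 1408 lower genes became 1407 and 2278 after centring on the median gene. At the first step the rises included Psmc6 (0.77), Psmb1 (0.83), Psma3 (0.69) and the chaperone Psmg2 (0.65), beside the 4 members named above. Of the 15 falls at the middle step, 7 were 19S non-ATPase subunits and 3 were ATPases, whereas at the last step 5 of 7 alpha subunits and 4 of 4 20S assembly chaperones fell. Fewer members were called at the last step without Smarca4.6, Smarca4.4 or Smarcc1.6, and fewest without Smarca4.6. The same held for the calls over all genes. Without the day 4 libraries 6 members were called. The calls over all genes then went from 2248 higher and 1408 lower to 1375 and 738. The member median at this step was -0.43 with all libraries. It was -0.37 without Smarca4.6, -0.47 without Smarca4.4, -0.36 without Smarcc1.6 and -0.48 without Smarcc1.7. Without Smarca4.6 fewer members and fewer of all genes were called at the first and middle steps too.

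Summed over the 31 constitutive 26S subunits, reads took 0.788%, 0.878%, 0.805% and 0.585% of the Nons library on days 4 to 7. The share was 0.768%, 1.09%, 0.843% and 0.545% in Smarcc1.6 and 0.756%, 0.744%, 0.561% and 0.47% in Smarcc1.7. It was 0.740%, 0.830%, 0.662% and 0.593% in Smarca4.4 and 0.813%, 1.00%, 0.728% and 0.513% in Smarca4.6. Between day 4 and day 7 the log2 of the sum fell by 0.52 ± 0.16 (SD, n = 5 series), and it was lower in 5 of 5 series. The sum was highest on day 5 in 4 of the series, Smarcc1.7 being the exception.

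**Figure D4:**
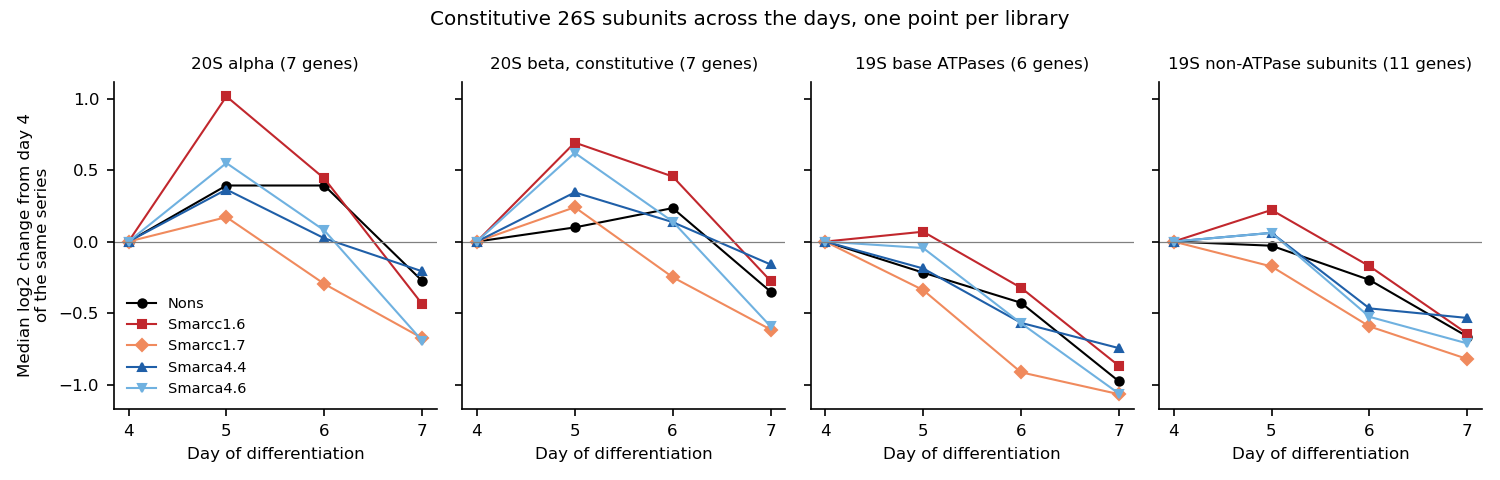
Median log2 change from day 4 of the same series (vertical axis) against day, for the genes of each constitutive group, with 1 point per library. The alpha and beta subunits of all 5 series stood above 0 on day 5 and below 0 on day 7, while the ATPases were at -0.75 to -1.07 on day 7.

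The 7 pluripotency markers moved over the same days, with a summed level of 2876 to 3399 rpm on day 4 and 405 to 1017 rpm on day 7, and all 7 had reads in each library. Endoderm markers (5 genes) summed to 1.65 to 3.17 rpm and 3.09 to 10.7 rpm, mesoderm markers (5 genes) to 13.5 to 17.0 rpm and 10.8 to 28.3 rpm, and neural markers (4 genes) to 65.7 to 118 rpm and 99.1 to 135 rpm on these days. Blood cell markers (7 genes) summed to 22.6 to 58.6 rpm over all libraries. Ptprc and Tyrobp were under 3 reads in each library, and Fcer1g in 15. Laptm5, Csf1r, Cd68 and Coro1a were under 3 reads in 0 libraries and reached 23.0, 15.2, 35.7 and 23.5 rpm. The part of these changes in the proteasome values was not tested.

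The wider pathway lists are to be read against the 35.7% of all genes called higher and 28.8% called lower between these days, shares that depended on the scaling. Of 16 tested genes of the interferon-gamma response and MHC class I presentation, 15 rose from day 4 to day 7 and 0 fell, with a median log2 difference of 1.90. The interferon-induced GTPase Gbp2 rose by 4.71 (SE 0.24), the MHC class I light chain B2m by 4.33 (SE 0.23), H2-K1, an MHC class I heavy chain, by 2.31 (SE 0.17) and the receptor Ifngr1 by 2.08 (SE 0.21), all on the log2 scale. B2m was at 4.56 to 7.03 rpm on day 4 and at 91.3 to 157 rpm on day 7. Of 13 other proteasome-bound or assembly factors, 1 rose and 6 fell, the riser being AI314180, also called Ecpas, at 1.07, and the largest fall Zfand2a at -1.09. Of 14 genes for ubiquitin, E1 enzymes, shuttles and p97, 0 rose and 5 fell, the falls being a share close to that of all genes, among them the shuttle Rad23b (-0.66), the E1 enzyme Uba1 (-0.58) and Vcp (-0.48), which encodes p97 and missed the threshold without Smarca4.4 (adjusted p = 0.0522, limma-trend) or Smarca4.6 (0.0573). Of 13 heat-shock and chaperone genes, 1 rose and 6 fell, with Hsph1 at -2.64 and Hspd1 at -1.93. Of 14 genes linked to transcription of proteasome genes, 4 rose and 4 fell, which is no more than the shares of all genes, among them Maff (2.36), Nfe2l3 (2.15) and Mafk (1.46) upwards and the NF-Y subunit Nfyc (-1.55) downwards.

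The second comparison asked whether the members differed between Smarcc1 knockdown and Nons, averaged over days. Psmb8 and Psme1 were lower and no member was higher, that is 0 of 47 higher and 2 of 47 lower. Across all genes tested, 7.54% were called higher and 3.08% lower, a split of 1003 to 409 that became 600 to 518 after quantile normalization. At an unadjusted p under 0.05, 1 member was higher and 4 were lower, against 2049 and 976 of all 13296 genes. The members had a median log2 difference of -0.09 and all genes of 0.06. Above 0 were 12 of 47 members, against 7761 of all 13296 genes. All 14 alpha and constitutive beta subunits were below 0, at values that did not pass the test. These signs share 1 Nons series and are not separate tests. The member median was -0.30 or 0.04 when 1 or the other Smarcc1 hairpin was left out, so its sign depended on the hairpin.

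For Psmb8 the log2 difference was -1.17 (SE 0.24, adjusted p = 0.00659, limma-trend). On day 4, where Nons had 51 reads, Smarcc1.6 and Smarcc1.7 were at 7.38% (95% exact interval 1.47% to 22.8%) and 14.6% (5.14% to 34.1%) of the Nons level, intervals that cover counting error only. On day 5 Nons was at 6.89 rpm and the Smarcc1 knockdown libraries at 2.82 and 4.13 rpm, and on day 6 at 18.5 against 13.3 and 14.2 rpm. On day 7 the values were 20.4 against 19.7 and 22.0 rpm, so that the groups no longer stood apart. Without day 4 the log2 difference was -0.47 (adjusted p = 0.374, limma-trend), and without Smarcc1.6 it was -0.95 (adjusted p = 0.0523, limma-trend).

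Psme1 had a log2 difference of -0.54 (SE 0.15, adjusted p = 0.0339, limma-trend). Nons was at 32.4, 80.6, 137 and 137 rpm on days 4 to 7, Smarcc1.6 at 16.5, 55.5, 105 and 115 rpm, and Smarcc1.7 at 21.0, 52.2, 88.0 and 114 rpm. Both hairpins were below Nons on each day. The call was lost in 8 of 17 alternatives, which were leaving out Smarcc1.6 (adjusted p = 0.0918, limma-trend), Smarcc1.7 (0.143), day 4 (0.203), day 6 (0.0977) or day 7 (0.121), quantile normalization (0.0575), a mean of at least 10 rpm (0.0544) and a replicate block on the culture series (adjusted p = 0.182 with an estimated correlation).

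The next members by size did not pass. Psma8 was at 0.68 (SE 0.20, adjusted p = 0.0504, limma-trend), with Nons at 47.4, 32.1, 15.7 and 6.66 rpm on days 4 to 7, Smarcc1.6 at 42.1, 60.4, 37.8 and 19.4 rpm and Smarcc1.7 at 42.9, 31.1, 23.2 and 18.96 rpm. Both hairpins lay above Nons on days 6 and 7 and below it on day 4. Without Smarcc1.7 the log2 difference of Psma8 was 0.89. Leaving out day 5 (0.76, adjusted p = 0.0311, limma-trend) brought Psma8 past the threshold. With all libraries, so did testing without the filter (adjusted p = 0.0401, limma-trend) and an additive model (adjusted p = 0.0481, limma-trend). Psme2 was at -0.45 (SE 0.19), Psmb9 at -0.42 (SE 0.19) and Psma7 at -0.33 (SE 0.20), with adjusted p-values of 0.167, 0.2 and 0.353 (limma-trend). Psma7 was at 474, 516, 677 and 325 rpm in Nons, 329, 665, 602 and 299 rpm in Smarcc1.6, and 345, 443, 321 and 235 rpm in Smarcc1.7.

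The hairpins against Smarcc1 lay on opposite sides of Nons for the constitutive subunits on days 5 and 6, but both below it on day 7, and the difference between hairpins was not tested. On day 5 the median of the 31 genes was 0.36 above Nons on the log2 scale in Smarcc1.6 and 0.27 below it in Smarcc1.7, and on day 6 it was 0.09 above and 0.55 below. On day 4 they were at 0.02 and -0.03, and on day 7 at -0.12 and -0.36. Without Smarcc1.6 the median difference of the 47 members was -0.30, and without Smarcc1.7 it was 0.04.

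**Figure D5:**
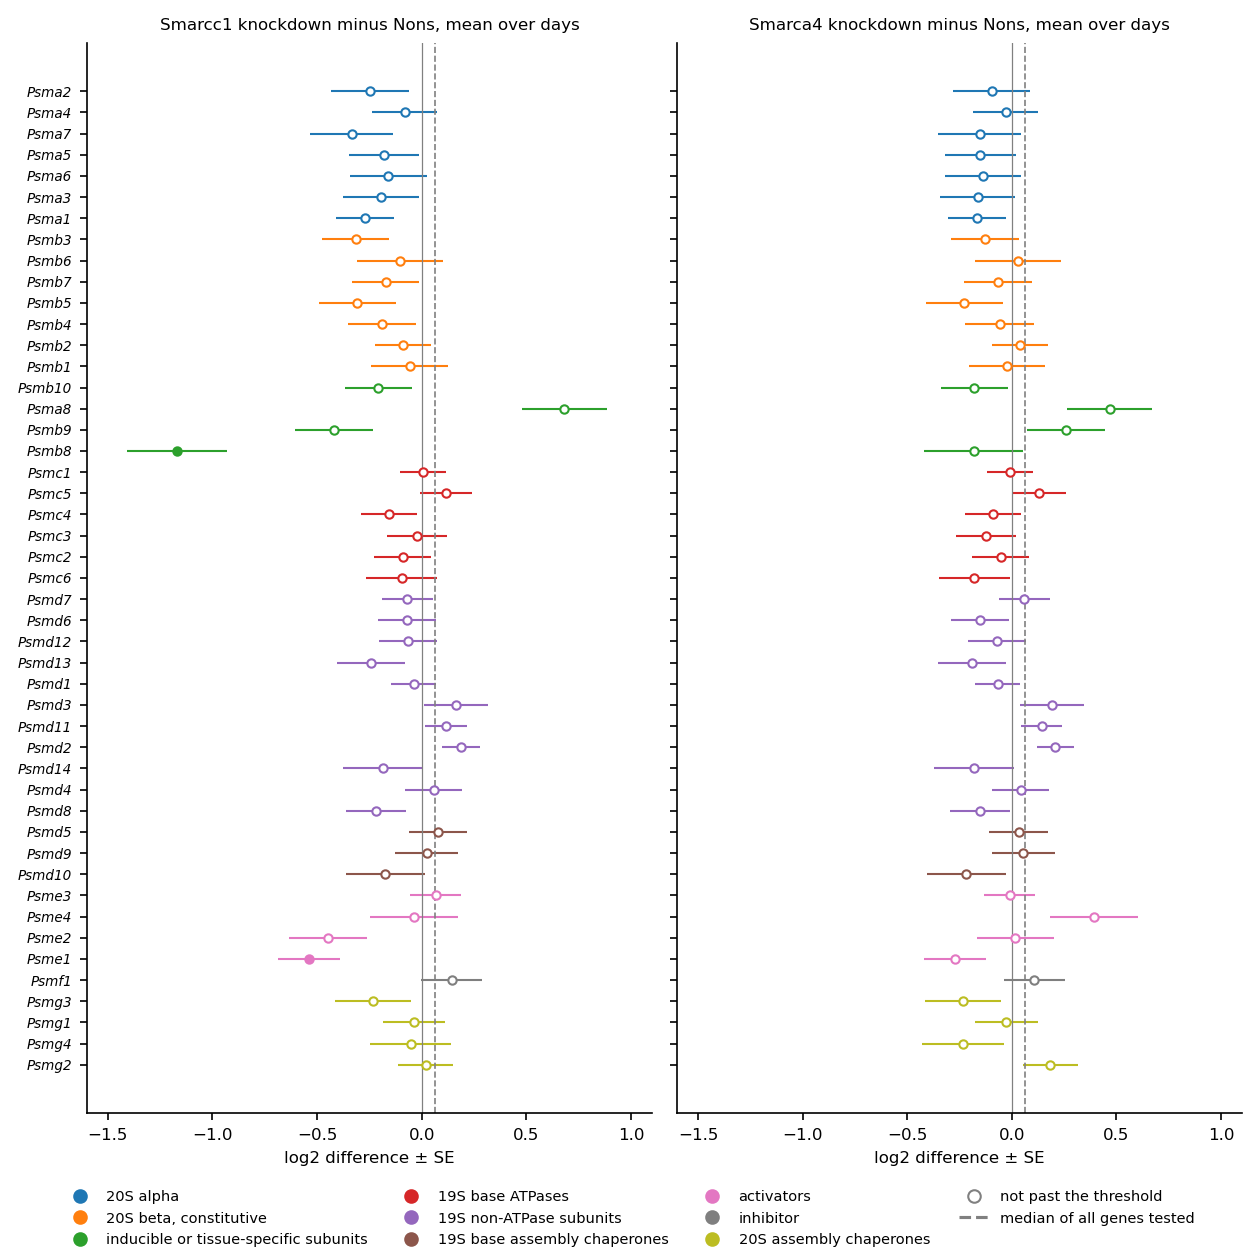
Log2 difference from Nons, averaged over days (horizontal axes, ± SE), for the 47 tested members in Smarcc1 knockdown (left) and Smarca4 knockdown (right), filled where the adjusted p was below the threshold. Psmb8 (-1.17) and Psme1 (-0.54) are filled on the left and no member is filled on the right.

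In Smarca4 knockdown against Nons, 0 of 47 members were called in either direction with limma-trend, whereas 4.75% of all genes were called higher and 1.96% lower (631 to 261, and 351 to 313 after quantile normalization). At an unadjusted p under 0.05, 2 members were higher, Psma8 and Psmd2, and 0 lower, against 1797 and 788 of all 13296 genes. The limma-voom fit on recovered reads also called 0. The largest log2 differences were Psma8 at 0.47 (SE 0.20), Psme4 at 0.39 (SE 0.21), Psme1 at -0.27 (SE 0.15), Psmb9 at 0.26 (SE 0.19), Psmg4, a 20S assembly chaperone, at -0.23 (SE 0.20) and Psmg3 at -0.23 (SE 0.18). Psme4 was at 395, 333, 342 and 389 rpm in Nons on days 4 to 7, 525, 454, 692 and 506 rpm in Smarca4.4, and 506, 290, 400 and 554 rpm in Smarca4.6. Of these 8 knockdown values 7 were above the same-day Nons value. Psmb8 was below Nons on day 4 here too, at 32.2% (16.5% to 59.0%) and 38.5% (19.2% to 71.8%) of its level, and its log2 difference over all days was -0.18 (SE 0.24). Psmg4 was at 23.6, 27.1, 35.6 and 19.98 rpm in Nons, 18.7, 25.04, 22.6 and 15.1 rpm in Smarca4.4, and 23.2, 37.4, 28.1 and 14.5 rpm in Smarca4.6. Each Nons contrast rests on a single Nons series, which both knockdown comparisons share.

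Between the knockdowns, Psmb8 and Psmb9 were lower in Smarcc1 knockdown than in Smarca4 knockdown and 0 members were higher, where 2.55% of all genes were higher and 1.54% lower. Psmb8 differed by -0.99 on the log2 scale (SE 0.19, adjusted p = 0.0135, limma-trend). Psmb9 differed by -0.68 (SE 0.15, adjusted p = 0.0249, limma-trend), with 5.22 and 5.12 rpm in the Smarcc1 knockdown libraries on day 5 against 9.08 and 13.6 rpm in the Smarca4 knockdown libraries, and 7.79 and 7.49 against 14.6 and 11.4 rpm on day 6. On day 7 Psmb9 was at 9.06 and 8.05 against 13.0 and 9.66 rpm, and on day 4 at 1.42 and 1.72 against 1.62 and 2.80 rpm. Each of these calls was lost in 8 of 16 alternatives. A replicate block on the culture series gave adjusted p = 0.1 for Psmb8 and 0.196 for Psmb9 with an estimated correlation. The others were, for Psmb8 alone, an additive model (adjusted p = 0.0682, limma-trend) and leaving out day 4 (0.111). For both genes they were leaving out Smarcc1.6 (adjusted p = 0.174 for Psmb8 and 0.197 for Psmb9), Smarca4.4 (0.0626 and 0.0532), Smarca4.6 (0.166 and 0.122), day 6 (0.0635 and 0.119) and day 7 (0.053 and 0.155), and for Psmb9 alone Smarcc1.7 (0.143) and day 5 (0.104), all by limma-trend.

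The change from day 4 to day 7 was also compared between each knockdown and Nons. In Smarcc1 knockdown 0 members were called, against 0.459% of all genes, and in Smarca4 knockdown 0, against 0.0827%. At an unadjusted p under 0.05 there were 2 and 1 members, all higher, and limma-voom called 0 members in both. Of all 13296 genes, 817 were higher and 217 lower at that p in Smarcc1 knockdown, and 349 and 207 in Smarca4 knockdown. The largest was Psmb8, whose rise was 3.30 log2 units larger in Smarcc1 knockdown than in Nons (SE 0.67, adjusted p = 0.0599, limma-trend) and 1.53 larger in Smarca4 knockdown (SE 0.67). By series Psmb8 rose by 3.46 in Nons, 7.17 and 6.34 in Smarcc1.6 and Smarcc1.7, and 5.34 and 4.64 in Smarca4.4 and Smarca4.6, on the log2 scale. The day 4 values of Smarcc1.6 and Smarcc1.7 rest on 3 and 6 reads, against 51 in Nons. On day 7 these libraries were at 96.7% and 108% of the Nons level. Without the smallest library, Smarca4.4 on day 5, or without day 5, the adjusted p for Smarcc1 knockdown was 0.0298 and 0.0252 (limma-trend), and with the replicate block it was 0.0197.

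Of the interferon and MHC class I list, 1 gene was higher and 2 were lower in Smarcc1 knockdown, and 2 were higher in Smarca4 knockdown, of 16 tested. Across all genes, 7.54% were higher and 3.08% lower in Smarcc1 knockdown, and 4.75% and 1.96% in Smarca4 knockdown. In Smarcc1 knockdown Irf9, a subunit of the interferon-induced factor ISGF3, was higher (0.71, SE 0.13), and Gbp2 (-1.03, SE 0.22) and Gbp3 (-1.28, SE 0.34) were lower. Gbp2 was at 11.4 rpm in Nons on day 4 and at 2.01 and 3.76 rpm in the Smarcc1 knockdown libraries. In Smarca4 knockdown Irf9 (0.62, SE 0.13) and H2-D1, an MHC class I heavy chain (0.64, SE 0.15), were higher. Of the 13 heat-shock and chaperone genes, 2 were higher and 0 lower in each knockdown. The heat-shock genes Hspa1a and Hspa1b were higher in Smarcc1 knockdown (1.19, SE 0.21 and 0.93, SE 0.23) and in Smarca4 knockdown (1.01, SE 0.21 and 0.93, SE 0.23), which did not pass after quantile normalization. Both genes were low, Hspa1a at 0.35 to 2.63 rpm and Hspa1b at 0.70 to 6.8 rpm over all libraries. The transcription factor genes Maff (-0.68, SE 0.17, Smarcc1 knockdown) and Foxo4 (0.51, SE 0.13, Smarca4 knockdown) also passed, and no gene of the ubiquitin list or of the other proteasome factors did in either knockdown. Each of these pathway calls in a knockdown was lost without at least 1 hairpin or day, with adjusted p-values of up to 0.297 (limma-trend). For Gbp2 that was without Smarcc1.6 (0.0622) or day 4 (0.0737). With the replicate block, all 5 of the Smarca4 knockdown calls were lost, with adjusted p-values from 0.0879 (Irf9) to 0.172 (Foxo4), as were Hspa1b (0.119), Gbp3 (0.106) and Maff (0.108) in Smarcc1 knockdown.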

How the data were processed

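RNA from 20 libraries was sequenced by the authors as single-end reads, trimmed and aligned to mm10 (HISAT2 per the submitters' processing notes), and the deposited values are log2 rpm per gene from the SeqMonk RNA-seq pipeline. The annotation release and strand setting are not given in the sources used here. A gene without reads carries the value of 0.9 read, from which whole reads and library totals were recovered (100% of values under 1000 reads were whole within 0.05). A further 4 samples of a second Nons series were not analysed here.

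Genes with a mean of at least 0 log2 rpm were fitted with limma-trend (limma 3.58.1, R 4.3.3) on the means of the 12 combinations of knockdown and day, with 8 residual degrees of freedom and Benjamini-Hochberg adjustment over all 13296 genes at 0.05. The day contrasts weight Nons and each knockdown equally. The fit was tested on simulated data. Levels per kilobase used the principal transcript of GENCODE M21. Members with values in every library were those past the threshold in a knockdown contrast, filled to 6 by size, the 5 largest called rises and falls between days 4 and 7, and the immunosubunits, PA28 subunits, Psma8 and Psmb11, with up to 4 called genes for each pathway list. Other members are given by counts, and some are named as examples after their values were seen. The members, lists and tests were chosen with earlier results of these data known. Alternatives covered filters, pseudocount, scaling, limma-voom on recovered reads, an additive model, a replicate block and leaving out hairpins, days or the smallest library.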

Additional observations from a re-analysis of the deposited data

Results flagged for a closer look

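Psmb8 and Psmb9 were flagged because the direct comparison of Smarcc1 knockdown with Smarca4 knockdown, which does not use the Nons libraries, passed the threshold. The log2 difference was -0.99 for Psmb8 (adjusted p = 0.0135, limma-trend) and -0.68 for Psmb9 (adjusted p = 0.0249, limma-trend), and each passed in 8 of 16 alternatives. With a replicate block on the culture series neither passed (adjusted p = 0.1 for Psmb8 and 0.196 for Psmb9 with an estimated correlation). No group held the 4 libraries that a check for single outlying samples needs.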

How the results depend on the processing

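Between day 7 and day 4 the members called stayed within 22 to 36 over 15 alternatives, and the 4 rises became 2 with a mean of at least 10 rpm, a filter that removes Psmb8 and Psmb9. The log2 change of the summed constitutive subunits was -0.52 without its most abundant gene, Psma7, and -0.54 as a mean of log2 values.

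For Smarcc1 knockdown against Nons, the 2 calls became 0 with a mean of at least 10 rpm (which removes Psmb8) or without day 4, 1 after quantile normalization, without day 6 or without day 7, and 4 without day 5, and were 0 to 2 when 1 hairpin was left out. For Smarcc1 against Smarca4 knockdown, the 2 calls became 0 with a mean of at least 10 rpm, without day 6 or without day 7, 1 in an additive model, without day 4 or without day 5, and 4 without the smallest library, and were 0 to 1 with 1 hairpin left out. For the difference of the day 4 to day 7 change between Smarcc1 knockdown and Nons, 0 calls became 1 without day 5 or without the smallest library. Where a hairpin is left out, the remaining library of each day is assumed to vary like those of the other groups. Beyond the removed genes, the cause was not tested.

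Differences of members that did not pass changed sign in a few alternatives. Against Nons in Smarca4 knockdown, Psmb8 was at 0.258 without day 4, and Psme2 (0.02 with all libraries) at -0.058 after centring, -0.102 without day 5, -0.031 without day 7 and -0.107 to 0.141 when 1 hairpin was left out. Between the knockdowns, Psmb10 (-0.03) was at 0.026 without day 5, 0.003 without day 6 and -0.149 to 0.092 when 1 hairpin was left out. Of 680 alternatives of 44 results for named members, 631 kept direction and side of the threshold.

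A replicate block on the culture series (estimated correlation 0.22) left 1 call for Smarcc1 knockdown against Nons, 0 between the knockdowns and 1 for the difference of changes, and it ended all 5 pathway calls in Smarca4 knockdown and 3 in Smarcc1 knockdown. Over all genes, the calls for Smarcc1 knockdown went from 1003 higher and 409 lower to 454 and 151. Those for Smarca4 knockdown went from 631 and 261 to 183 and 75. Between day 4 and day 7 they went from 4749 and 3826 to 5033 and 4105. The deviations of same-hairpin libraries correlated at -0.21 to 0.82 between days (0.44 to 0.82 among days 5 to 7 in Smarcc1 knockdown), and not all were above 0.1, so the hairpins were not treated as pairing the libraries. The main fit thus took the libraries of a hairpin as separate, and its p-values for contrasts averaged over days take no account of these correlations. Depth limits Psmb8 on day 4, where a knockdown library held as few as 3 reads.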
